A study of Mus musculus with 4 samples.

Results

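The Hox genes of the mouse are homeobox transcription factors that lie in 4 clusters, Hoxa on chromosome 6, Hoxb on chromosome 11, Hoxc on chromosome 15 and Hoxd on chromosome 2. Members were all genes whose symbol is Hoxa, Hoxb, Hoxc or Hoxd followed by a number alone. The RefSeq gene table lists 39 such genes. Of these, 37 had a probe matched by accession, with 44 probes among them, against 33378 genes and transcripts on the array as a whole. Hoxc11 and Hoxd8 had no probe matched by name. A probe well above background on at least 1 array was found for 29 members, and these were tested with the 21216 genes of the series that met the same filter. A gene that passed this filter through one kind of cell alone had to differ from the other kind, which bears on every count over these 29 genes.

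RNA was compared between induced pluripotent stem (iPS) lines 7 and 13, derived from bone marrow mononuclear cells of C57BL/6 mice carrying an Oct4-EGFP transgene (n = 2 lines), E14 embryonic stem (ES) cells of strain 129 (n = 1), and C57BL/6 bone marrow mononuclear cells (BMMNCs), the starting cell type, whose label names no transgene (n = 1). The iPS and ES cells were grown with leukemia inhibitory factor on irradiated mouse embryonic fibroblasts, and the fibroblasts were depleted by preplating on gelatin before RNA was taken. The labels name no reprogramming factors, do not say whether BMMNCs were pooled from several mice, and do not say whether the lines were single clones. Strain differs between the iPS lines and ES cells, so strain and cell type cannot be told apart in that comparison.

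Hox proteins give cells of the embryo their position along the head-to-tail axis. Within a cluster, genes of low paralogue number act towards the head and those of high number towards the tail, and they open in that order during development. Polycomb proteins hold the clusters silent in pluripotent cells, while blood stem and progenitor cells use a part of them, chiefly central and posterior Hoxa genes and Hoxb4. Embryonic fibroblasts carry Hox patterns that reflect where in the body they arose.

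Start-site sequences are shown for 4 genes that stand for the contrast described next, as a window of 250 bases before to 50 bases after the annotated start, on the gene's strand, from RefSeq (build GRCm38.p6). Capitals mark CG dinucleotides, the sites at which promoters can be methylated. Hoxa7 (chr6:52218524-52218823, minus strand) and Hoxb4 (chr11:96318017-96318316, plus strand) were lower in iPS cells than in BMMNCs. Hoxa10 (chr6:52234890-52235189, minus strand, 1 of 2 starts in the table) and Hoxa11 (chr6:52245761-52246060, minus strand) were above background in iPS and ES cells and not in BMMNCs.
Hoxa7: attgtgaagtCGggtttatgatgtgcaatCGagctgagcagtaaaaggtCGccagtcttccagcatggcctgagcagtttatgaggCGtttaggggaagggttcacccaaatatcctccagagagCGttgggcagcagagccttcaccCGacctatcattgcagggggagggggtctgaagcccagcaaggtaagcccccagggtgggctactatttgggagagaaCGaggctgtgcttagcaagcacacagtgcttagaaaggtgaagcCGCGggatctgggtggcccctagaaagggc
Hoxb4: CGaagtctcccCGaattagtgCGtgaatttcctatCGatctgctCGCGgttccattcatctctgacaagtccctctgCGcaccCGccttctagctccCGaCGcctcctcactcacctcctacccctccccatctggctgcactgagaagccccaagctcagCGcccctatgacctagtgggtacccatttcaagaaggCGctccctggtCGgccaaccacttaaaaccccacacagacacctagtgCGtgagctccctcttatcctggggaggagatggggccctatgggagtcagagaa
Hoxa10: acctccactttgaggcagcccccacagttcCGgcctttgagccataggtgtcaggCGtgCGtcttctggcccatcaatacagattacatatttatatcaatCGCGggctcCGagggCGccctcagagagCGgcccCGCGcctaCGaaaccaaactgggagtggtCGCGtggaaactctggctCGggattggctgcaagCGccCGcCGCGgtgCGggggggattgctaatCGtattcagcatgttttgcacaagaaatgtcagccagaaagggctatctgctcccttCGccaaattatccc
Hoxa11: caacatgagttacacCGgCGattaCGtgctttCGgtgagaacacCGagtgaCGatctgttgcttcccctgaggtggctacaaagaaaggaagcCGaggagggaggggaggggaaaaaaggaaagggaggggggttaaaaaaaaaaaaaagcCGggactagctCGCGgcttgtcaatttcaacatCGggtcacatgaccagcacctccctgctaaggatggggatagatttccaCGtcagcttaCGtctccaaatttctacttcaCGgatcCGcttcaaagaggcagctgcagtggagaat

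The Hoxa7 window holds 9 CG dinucleotides, the Hoxb4 window 14, the Hoxa10 window 21 and the Hoxa11 window 15. The table had 24 such windows for 22 Hox genes, with a median of 14.5 CG dinucleotides (range 4 to 45), against a median of 7 over all 32851 windows. The 9 windows of genes higher in iPS cells than in BMMNCs had a median of 13 (range 4 to 37), the 3 windows of genes lower in iPS cells a median of 14 (range 9 to 20), and the 6 windows of genes above background on no array a median of 22.5 (range 4 to 45). Short motifs were searched on both strands. CCAAT was found in 15 of the 24 Hox windows (62.5%, against 37.4% of all windows) and CACGTG in 5 (20.8%, against 7.15%). TGATNNAT, a form of the site bound by Pbx and Hox proteins together, was in 4 (16.7%, against 8.85%), and TTTATNG, a form of the Cdx site, in 2 (8.33%, against 10.9%). TATAAA was in 4 (16.7%, against 13.6%) and GGGCGG in 10 (41.7%, against 35.7%). None of these 6 motifs lies in the Hoxa7, Hoxb4 or Hoxa11 window, and the Hoxa10 window holds 1 CCAAT and 1 TATAAA.

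Levels are log2 signals from which the log2 of each array's 75th percentile was subtracted, so that 0 is that percentile, and a level can be compared between arrays for 1 gene but not between genes. The 75th percentile was 1120 on the line 7 array, 1123 on line 13, 1048 on ES and 602 on BMMNC, and 59.0%, 56.1%, 57.4% and 54.6% of probes were well above background on the line 7, line 13, ES and BMMNC arrays. No spot was saturated. The labels were checked against marker genes: 10 of 10 pluripotency markers were above background on both iPS arrays and the ES array and 5 on the BMMNC array, while 10 of 10 blood cell markers were above background in BMMNCs, 4 on each iPS array and 5 in ES cells. All 19 fibroblast markers were above background on both iPS arrays and the ES array, and 8 in BMMNCs. Their summed level, in units of the array's 75th percentile signal, was 823 in line 7, 750 in line 13 and 675 in ES cells, against 20.2 in BMMNCs. Prrx1 and Twist1, transcription factors of mesenchyme, were among the 11 not above background in BMMNCs.

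More Hox genes were detected in the pluripotent cultures than in marrow. Of 37 members, 29 were well above background in line 7 (78.4%), 26 in line 13 (70.3%) and 22 in ES cells (59.5%), against 10 in BMMNCs. Over all genes of the array the shares were 56.0%, 53.3% and 54.5% for line 7, line 13 and ES cells, and 52.4% for BMMNCs. The 10 genes detected in BMMNCs were Hoxa3, Hoxa4, Hoxa5, Hoxa6, Hoxa7, Hoxa9, Hoxb2, Hoxb4, Hoxc4 and Hoxd12, 6 of them in the Hoxa cluster. In bulk RNA such as this, fewer cells that express a gene and less RNA per cell cannot be told apart.

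By cluster, line 7 had 10 of 11 Hoxa genes above background, line 13 had 10 and ES cells had 8, against 6 in BMMNCs. Of 10 Hoxb genes, 9 were above background in line 7, 9 in line 13 and 9 in ES cells, against 2 in BMMNCs. Of 8 Hoxc genes the counts were 5 in line 7, 3 in line 13 and 3 in ES cells, against 1 in BMMNCs. The Hoxd cluster gave 5 of 8 in line 7, 4 in line 13 and 2 in ES cells, against 1 in BMMNCs. The gap to BMMNCs was thus widest in the Hoxb cluster, for each of the 3 other arrays. By position, paralogues 1 to 4 gave 9, 9 and 8 of 12 genes in line 7, line 13 and ES cells, against 5 in BMMNCs. Paralogues 5 to 8 gave 10, 8 and 7 of 10 in line 7, line 13 and ES cells, against 3 in BMMNCs. Paralogues 9 to 13 gave 10, 9 and 7 of 15 in line 7, line 13 and ES cells, against 2 in BMMNCs. The BMMNC array thus had the lowest count in each class of position. The 8 members above background on no array were Hoxa13, Hoxb1, Hoxc10, Hoxc12, Hoxc13, Hoxd1, Hoxd3 and Hoxd11; they have no measured difference.

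**Figure D1:**
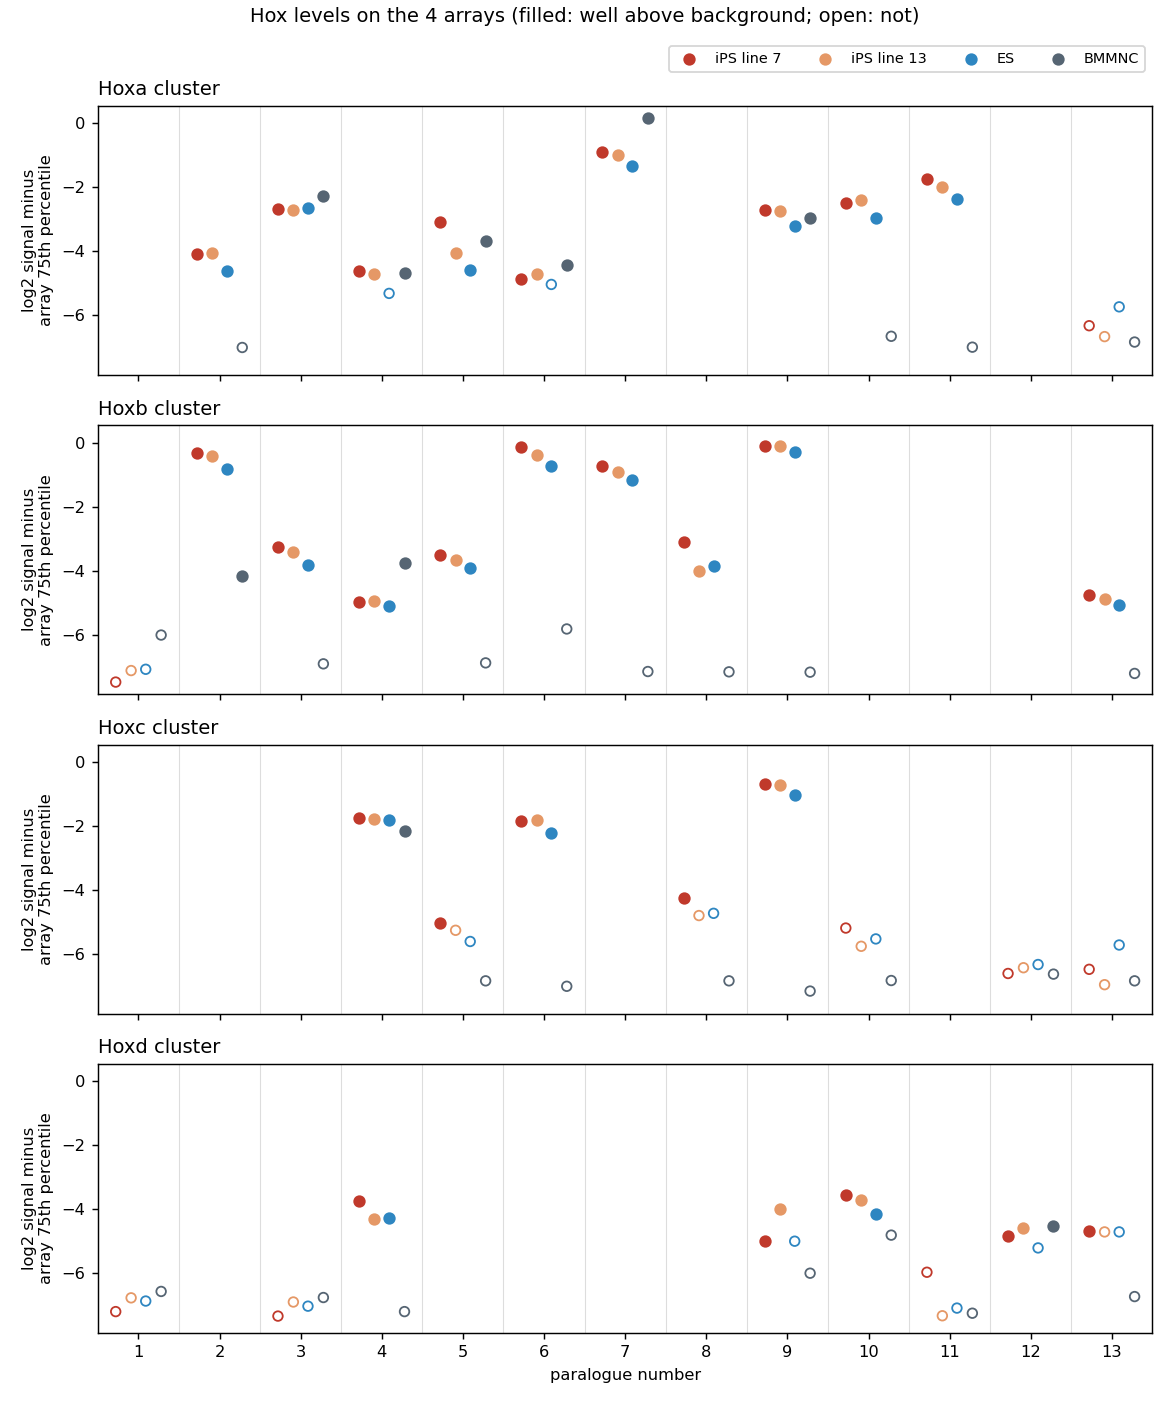
Level of Hox genes with a probe (y axis, log2 signal minus the array's 75th percentile) by paralogue number (x axis), 1 panel per cluster, with 1 point for each array in the order line 7, line 13, ES, BMMNC; filled points are well above background. Points compare arrays within a gene: 7 of 10 Hoxb genes and 2 of 8 Hoxc genes have filled points in both lines and ES cells and an open BMMNC point, and the central Hoxa genes have filled points in BMMNCs.

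Reprogrammed lines were then set against the marrow cells they came from. Of the 29 tested members, 20 were higher in iPS cells, 3 were lower and 6 did not pass the test (limma, Benjamini-Hochberg adjusted over all genes, threshold 0.05). In the series as a whole 38.0% of genes were called higher and 37.8% lower, 75.8% in all, so that a call in itself is common here; the median difference of the 29 members was 2.39 on the log2 scale, against -0.01 over all genes tested. That median takes dim BMMNC signals at their face value: it was 0.87 with levels raised to the floor (-0.07 over all genes), 0.24 with normexp correction (-0.20 over all genes) and 0.10 over the 7 members above background on all arrays. By cluster, 4 Hoxa genes were higher, 2 lower and 4 not called; 8 Hoxb genes were higher and 1 lower; all 5 tested Hoxc genes were higher; 3 Hoxd genes were higher and 2 not called. At least 4-fold higher in both lines were 15 members (15.2% of all genes), and none was 4-fold lower (15.0% of all genes). All of the 15 except Hoxb2 are set against a BMMNC signal not well above background; the count was 9 with levels raised to the floor and 5 with normexp correction.

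These tests rest on 1 residual degree of freedom, the difference between lines 7 and 13, and the single ES and BMMNC arrays are taken to vary as the lines do; the labels do not say whether the samples came from separate cultures or animals, so the p-values measure only the spread between these samples. For a gene not well above background in BMMNCs the difference has only a lower bound at the scaling used here, written as "at least N-fold". It sets the mean of the iPS lines against the higher of the gene's own BMMNC level and the lowest level of any probe well above background on that array. That lowest level was -4.93 in BMMNCs and rests on the dimmest such probe alone, so it is no firm detection limit. Hoxd10, at -4.81, lay above it and was not well above background. Differences with normexp correction fell below some bounds: 1.80 for Hoxa11 and 0.99 for Hoxa10, against log2 bounds of 3.07 and 2.49. The adjusted p beside a bound tests the fitted difference, not the bound. Of the 20 members called higher, 18 were not well above background in BMMNCs and 17 had a bound above 1, from 1.08-fold to 28.6-fold with a median of 3.04-fold. The 17 include Hoxc8 and Hoxd13, whose line 13 signal was not well above background either, so their values are not true lower bounds. With every level below the array's floor raised to it, a setting chosen after the data were seen, 14 members were higher and 3 lower, and Hoxb8, Hoxb13, Hoxc5, Hoxc8, Hoxd4 and Hoxd13 were no longer called. With normexp background correction 15 were higher and 7 lower, and the median over all genes shifted to -0.20.

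Hoxb2 and Hoxc4 were the members called higher that were measured on both sides. Hoxb2, which patterns the hindbrain, had levels of -0.31 in line 7, -0.43 in line 13 and -0.83 in ES cells, against -4.16 in BMMNCs. The lines lay 3.79 ± 0.11 (SE) above BMMNCs, or 13.8-fold (limma adjusted p = 0.000906). Hoxc4 had levels of -1.74, -1.79 and -1.81 in line 7, line 13 and ES cells, against -2.17 in BMMNCs. Its difference of 0.40 ± 0.10 was 1.32-fold (limma adjusted p = 0.0379) and lost the call with quantile normalization (0.27, adjusted p = 0.0583), with median scaling (0.21, adjusted p = 0.149), without the filter on dim genes (adjusted p = 0.159) and with ES and iPS arrays as 1 group (0.39, adjusted p = 0.0727).

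Central and posterior Hoxb genes had some of the highest bounds. Hoxb9, a gene of the trunk, had levels of -0.09 in line 7, -0.10 in line 13 and -0.28 in ES cells, against -7.17 in BMMNCs, at least 28.6-fold higher in iPS cells than in BMMNCs (limma adjusted p = 0.000719). Hoxb6 had levels of -0.13, -0.39 and -0.73 in line 7, line 13 and ES cells, against -5.82 in BMMNCs, at least 25.5-fold (limma adjusted p = 0.000942). Hoxb7 had levels of -0.72, -0.90 and -1.17, against -7.15 in BMMNCs, at least 17.4-fold (limma adjusted p = 0.000764). For all 3 genes both lines and the ES array were above background, the BMMNC array was not, and line 7, line 13 and ES lay within 1 log2 unit of each other. The other Hoxb genes called higher had smaller bounds: at least 3.04-fold for Hoxb3, 2.59-fold for Hoxb8, 2.55-fold for Hoxb5 and 1.08-fold for Hoxb13, the most posterior gene of the cluster. A second Hoxb8 probe was not above background on any array.

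In the Hoxc cluster, Hoxc9 had levels of -0.70 in line 7, -0.73 in line 13 and -1.03 in ES cells, against -7.16 in BMMNCs, at least 18.6-fold higher in iPS cells (limma adjusted p = 0.000719). Hoxc6, expressed in the thoracic region of the embryo, had levels of -1.86, -1.82 and -2.22 in line 7, line 13 and ES cells, against -7.01 in BMMNCs, at least 8.53-fold (limma adjusted p = 0.000719). The BMMNC array was not above background for either gene. Hoxc8 and Hoxc5 were above background in line 7 alone, at -4.25 and -5.02. The rule for bounds put Hoxc8 1.33-fold above BMMNCs, but its line 13 signal was not well above background, so this is no true lower bound. Hoxc5 had no bound above 1, and its fitted difference of 1.69 became -0.24 with normexp correction and -0.09 with levels raised to the floor.

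Members of the Hoxa cluster called higher in iPS cells included Hoxa2, Hoxa10 and Hoxa11, while Hoxa3 and Hoxa7 were called lower. Hoxa13, at the posterior end, was above background on no array. Hoxa11, a limb and urogenital gene, had levels of -1.74 in line 7, -1.99 in line 13 and -2.37 in ES cells, against -6.99 in BMMNCs, at least 8.37-fold higher in iPS cells (limma adjusted p = 0.000979). Hoxa10, known from the uterus and from myeloid progenitors, had levels of -2.48, -2.40 and -2.96, against -6.65 in BMMNCs, at least 5.62-fold (limma adjusted p = 0.0008). Neither was above background in BMMNCs. Hoxa2, near the anterior end, at -4.08 in line 7, -4.04 in line 13 and -4.62 in ES cells against -7.00 in BMMNCs, was at least 1.83-fold higher.

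The 3 members lower in iPS cells were Hoxa7, Hoxb4 and Hoxa3. Hoxa7, active in blood progenitors and the trunk, had levels of -0.90 in line 7, -0.97 in line 13 and -1.33 in ES cells, against 0.16 in BMMNCs. The difference between the lines and BMMNCs was -1.10 ± 0.10 on the log2 scale (SE, limma adjusted p = 0.00485). Hoxb4, known for expanding blood stem cells when overexpressed, had levels of -4.97, -4.94 and -5.10 in line 7, line 13 and ES cells, against -3.77 in BMMNCs, a difference of -1.19 ± 0.09 (limma adjusted p = 0.00368). For both genes all arrays were above background and the BMMNC array was the highest of the 4. Hoxb4 was close to the lowest level well above background, -5.01 in line 13 and -5.14 in ES cells, so background limits its measured difference. Hoxa3, a gene of the pharyngeal arches, had levels of -2.66, -2.69 and -2.64, against -2.28 in BMMNCs, a difference of -0.40 ± 0.09 (limma adjusted p = 0.0376). A second Hoxa3 probe was above background in line 7 alone and lay 1.80 higher in iPS cells than in BMMNCs, and with the mean of the probes the difference turned to 0.70. With the brightest probe, the Hoxa3 call was lost in the authors' table (-0.27, adjusted p = 0.0809), without the filter on dim genes (adjusted p = 0.162) and with ES and iPS arrays as 1 group (-0.38, adjusted p = 0.0729).

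Members detected in BMMNCs that did not pass the test were Hoxa4, Hoxa5, Hoxa6, Hoxa9 and Hoxd12. Hoxa9, a gene of blood stem and myeloid progenitor cells, had levels of -2.71 in line 7, -2.75 in line 13 and -3.19 in ES cells, against -2.94 in BMMNCs, and the difference between the iPS lines and BMMNCs was 0.21 ± 0.09 (limma adjusted p = 0.143). Hoxa5, which acts in lung and blood, had levels of -3.09, -4.05 and -4.57, against -3.67 in BMMNCs, a difference of 0.10 ± 0.51 (limma adjusted p = 0.87). For these genes the BMMNC level lay between those of other arrays. Hoxa6 was at -4.85, -4.69 and -5.03 in line 7, line 13 and ES cells, against -4.41 in BMMNCs, a difference of -0.36 ± 0.12 (limma adjusted p = 0.0818), which passed the test with normexp correction (-0.62, adjusted p = 0.0011), quantile normalization (-0.52, adjusted p = 0.0377) and median scaling (-0.55, adjusted p = 0.0351). Hoxa4 was at -4.61, -4.69 and -5.31, against -4.68 in BMMNCs, a difference of 0.03 ± 0.10 (limma adjusted p = 0.812), which was -0.46 with normexp correction and -0.72 with the mean of its probes. The mean for Hoxa4 takes in a second probe that was not above background on any array. The ES array was not above background for Hoxa4 or Hoxa6.

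Of 5 tested Hoxd genes, 3 were called higher. Hoxd4 had levels of -3.73 in line 7, -4.32 in line 13 and -4.29 in ES cells, against -7.20 in BMMNCs, at least 1.88-fold higher in iPS cells (limma adjusted p = 0.00608). Hoxd10, a limb and lumbar gene, had levels of -3.55, -3.72 and -4.14, against -4.81 in BMMNCs, at least 2.25-fold (limma adjusted p = 0.00726). Hoxd13, which patterns digits, was above background in line 7 alone, at -4.67. Its fitted difference from BMMNCs was 2.04 (limma adjusted p = 0.00156), which turned to -0.13 with normexp correction. The rule for bounds gave 1.18-fold, but its line 13 signal was not well above background, so this is no true lower bound. Of the 3 called higher, Hoxd4 and Hoxd10 were above background on both iPS arrays and the ES array and Hoxd13 on 1 of 4 arrays. Hoxd9, above background in both lines alone, had levels of -4.98 and -4.00 in line 7 and line 13, -5.00 in ES cells and -6.00 in BMMNCs, at least 1.36-fold higher in iPS cells than in BMMNCs. It did not pass the test (limma adjusted p = 0.0833), but passed with the intensity trend (adjusted p = 0.00268) and with the mean of its probes (adjusted p = 0.00926). That mean takes in a second Hoxd9 probe that was not above background on any array. Hoxd12 had levels of -4.84, -4.58 and -5.21, against -4.53 in BMMNCs (difference -0.19 ± 0.16, limma adjusted p = 0.373; -0.50, adjusted p = 0.00193, with normexp correction), with only the ES array below the mark.

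**Figure D2:**
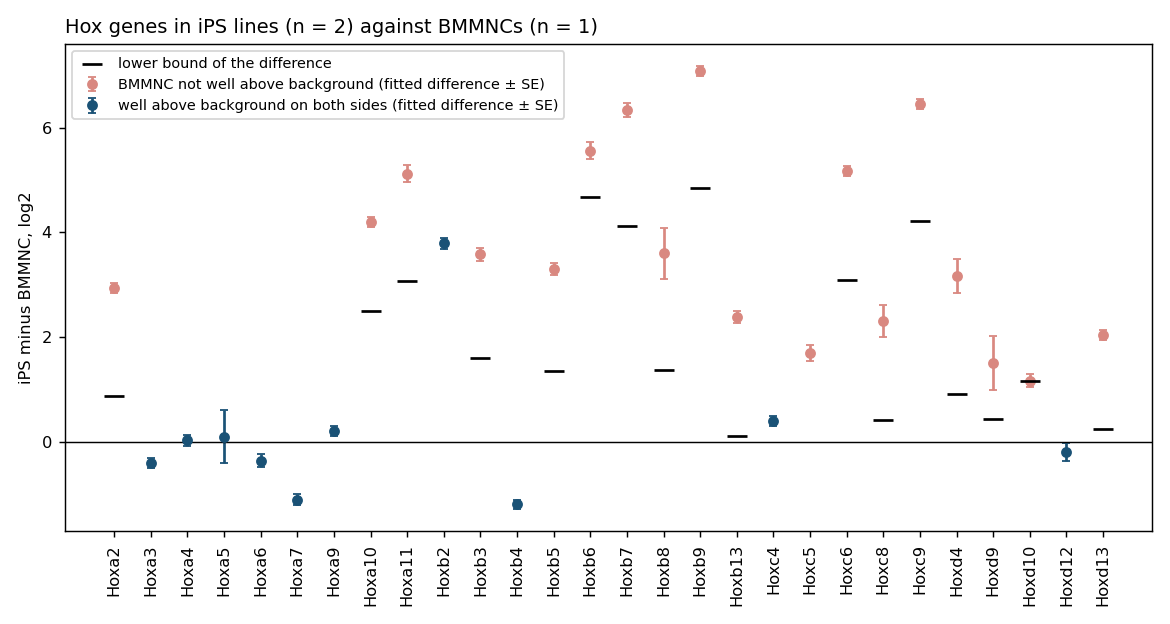
Difference between the mean of the iPS lines (n = 2) and the BMMNC array (n = 1) on the log2 scale for tested Hox genes, with SE bars from limma; black dashes give the lower bound where BMMNCs were not well above background. Hoxb6, Hoxb7, Hoxb9 and Hoxc9 have the highest bounds, and Hoxa3, Hoxa6, Hoxa7, Hoxb4 and Hoxd12 lie below 0 among genes measured on both sides, of which Hoxa3, Hoxa7 and Hoxb4 passed the test.

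Fibroblast markers moved the same way: 19 of 19 were higher in iPS cells than in BMMNCs (median 6.98, limma), with the summed levels given above. In the series as a whole 38.0% of genes were called higher. Col1a1, a collagen chain, had levels of 6.83 in line 7, 6.79 in line 13 and 6.79 in ES cells, against -2.21 in BMMNCs. The part of fibroblast RNA in the Hox differences was not tested.

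ES cells were set against the same BMMNC array. There 19 members were higher, 4 lower and 6 not called (limma; 38.9% of all genes were called higher and 34.7% lower, 73.5% in all), with a median of 2.14 against 0.06 over all genes. The Hox median was 0.36 with levels raised to the floor (-0.01 over all genes), 0.02 with normexp correction (-0.14 over all genes) and -0.36 over the 7 members above background on all arrays. The split was 10 higher and 9 lower with normexp correction, and 18 higher and 7 lower with quantile normalization or median scaling. Hoxb9 was at least 25.2-fold higher in ES cells, Hoxb6 at least 18.5-fold, Hoxc9 at least 14.9-fold and Hoxb7 at least 13.6-fold. Hoxa7 (-1.49 ± 0.11, limma adjusted p = 0.00404) and Hoxb4 (-1.33 ± 0.11, limma adjusted p = 0.00438) were lower in ES cells. Of the 19 called higher, Hoxc5, Hoxc8 and Hoxd13 were well above background on neither array and have no measured difference. Hoxa4 and Hoxa6, not above background in ES cells, were at least 1.37-fold and 1.53-fold lower. Both calls were lost without the filter on dim genes (adjusted p = 0.0997 for Hoxa4 and 0.12 for Hoxa6), with the intensity trend (0.167 and 0.155) and with the iPS and ES arrays pooled (0.671 and 0.123). At least 4-fold higher were 15 members (17.2% of all genes) and none was 4-fold lower (15.8%); all of the 15 except Hoxb2 are set against a dim BMMNC signal, and the count was 8 with levels raised to the floor and 4 with normexp correction. Both comparisons use the 1 BMMNC array, so they are not independent of each other.

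Between iPS lines and ES cells no Hox gene passed the limma test, and 4.71% of all genes did (1.93% higher, 2.79% lower), a share at which few of 29 genes would be called. No gene of the series was called in the authors' table or without the filter on dim genes. At an unadjusted limma p under 0.05, 11 of the 29 members differed, as did 6635 of all 21216 genes tested, so such a difference is common here. With an intensity trend in the variance 8 members were called higher, with normexp correction 6, and 4 of 7 once the filter required detection on each of the 4 arrays. Calls over all genes rose too, from 1000 of 21216 to 7707 with the trend (3307 higher) and 5734 with normexp (2476 higher). With the filter on all arrays 5773 of 14859 genes were called (2421 higher), so a call is common in these settings. The other settings gave 0 Hox genes. No member was 2-fold apart in both lines (2.34% of all genes were higher by that rule and 4.19% lower). The direction was shared: 28 of 29 members had a higher mean in iPS cells than in ES cells (43.6% of all genes), 27 with normexp correction and 28 or 29 with the other scalings, and both lines lay above the ES array for 24 (37.1% of all genes). The filter favours this direction, since Hoxc5, Hoxc8, Hoxd9 and Hoxd13 passed it through iPS arrays alone. Without the filter the mean was higher for 30 of 37 members. Of the 22 members above background in both lines and ES cells, both lines lay above ES for 19 (86.4%, against 38.8% of all genes above background on these arrays). The median difference of the 29 members was 0.39, against -0.06 over all genes.

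Among the 22 members above background in ES cells, line 7 lay above ES by a median of 0.48 and line 13 by 0.34. Hoxa2 had the lowest unadjusted p of these, with a difference of 0.56 ± 0.09 between the iPS lines and ES cells (limma adjusted p = 0.0829). Hoxa10 differed by 0.52 ± 0.10 (limma adjusted p = 0.0981) and Hoxb2 by 0.46 ± 0.11 (limma adjusted p = 0.12). In each of these 3 genes both lines were above the ES array and the lines lay closer to each other than to it. Hoxa5 had the largest difference, 1.0 ± 0.51 (limma adjusted p = 0.297), which rested on line 7: the line 13 level of -4.05 was nearer to -4.57 in ES cells than the line 7 level of -3.09 was. Hoxb9 (0.18), Hoxb4 (0.14), Hoxc4 (0.05) and Hoxa3 (-0.04) lay closest to ES cells.

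The same direction was seen in fibroblast markers: 18 of 19 had a higher mean in iPS cells than in ES cells, with a median of 0.22 and none called by limma. Over all genes 43.6% had a higher mean in iPS cells, and 4.71% were called. Line 7 lay above line 13 in all 19 markers, by a median of 0.14, and in 17 of the 22 Hox genes, by a median of 0.09, against 42.1% of all genes. The part of fibroblast RNA in the Hox differences between these arrays was not tested. The summed Hox level was 7.18 in line 7, 6.65 in line 13 and 5.42 in ES cells, against 2.29 in BMMNCs. Like the other summed levels here, it is set mostly by the brightest probes and includes genes not above background. It therefore does not weigh the genes evenly.

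**Figure D3:**
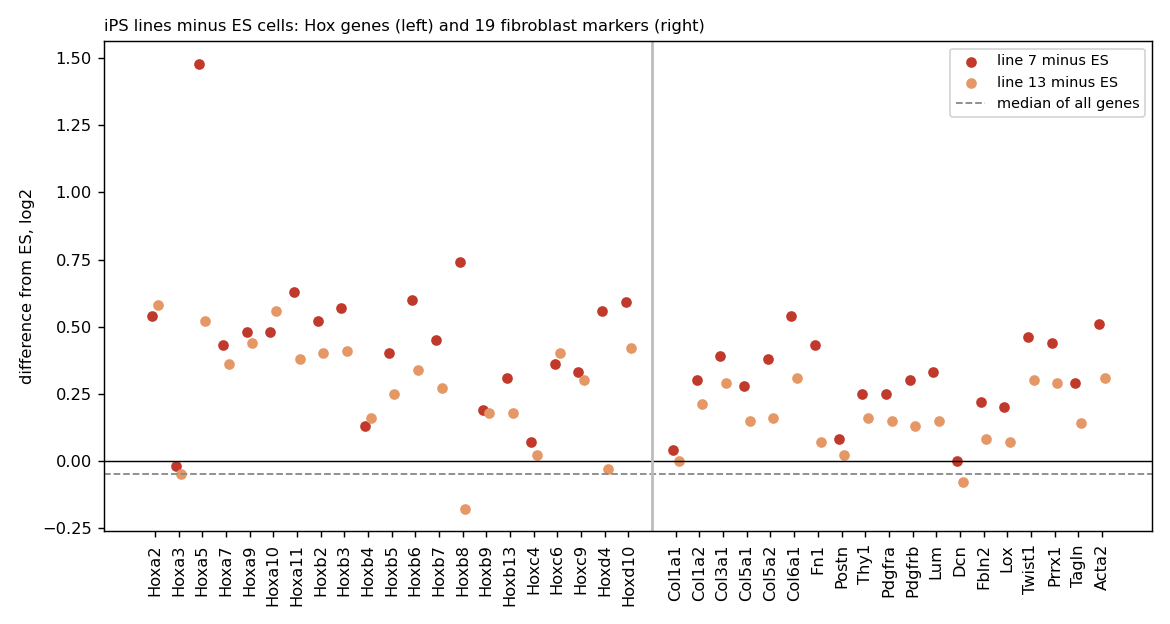
Level in line 7 and in line 13 minus the level in ES cells (log2 scale) for Hox genes above background in ES cells, at left, and for 19 fibroblast markers, at right; the dashed line is the median of all genes, -0.05. Most points of both groups lie above 0, and line 7 lies above line 13 in most of the Hox genes and in all 19 markers.

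The 2 iPS lines were also set against each other. None of the 29 members was 2-fold apart between line 7 and line 13 (2.44% of all genes, 1.32% with line 7 higher and 1.11% with line 7 lower). At that share few of 29 genes would be 2-fold apart. Over the 26 members above background in both lines the median absolute difference was 0.12, against 0.09 over 17546 genes. Of these members 22 differed by less than 0.5, against 17231 of the 17546 genes. A larger share of the Hox genes thus lay 0.5 or more apart. The widest gaps were -0.98 for Hoxd9, with line 13 higher, and 0.96 for Hoxa5, 0.93 for Hoxb8 and 0.59 for Hoxd4, with line 7 higher. The SE of a gene is computed from this gap and a prior shared by all genes. By construction, then, these 4 genes also had the widest errors of the members tested, with an SE of 0.32 or more against BMMNCs.

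Hox proteins bind DNA with TALE cofactors, the Meis, Pbx and Pknox (Prep) proteins. Of 9 such genes, 4 were higher and 4 lower in iPS cells than in BMMNCs (limma), with a median of -0.39. Over all genes 38.0% were called higher and 37.8% lower than in BMMNCs, and 4.71% were called against ES cells. Meis1, a partner of Hoxa9 in blood progenitors, had levels of -3.07 in line 7, -3.23 in line 13 and -3.64 in ES cells, against -1.91 in BMMNCs, a difference of -1.24 ± 0.13 (limma adjusted p = 0.00623). Meis2 had levels of -0.57, -0.58 and -0.61, against -6.70 in BMMNCs, at least 20.5-fold higher in iPS cells (limma adjusted p = 0.000719). Meis3 was 2.03 ± 0.13 higher (limma adjusted p = 0.00259). Against ES cells 1 TALE gene was called: Pknox2, at least 2.37-fold higher in iPS cells (limma adjusted p = 0.0427), a call lost in the authors' table and without the filter on dim genes, where no gene of the series was called.

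Polycomb proteins silence the clusters and Trithorax proteins keep them active. Of 15 Polycomb genes, 8 were higher and 5 lower in iPS cells than in BMMNCs, and none was called against ES cells (limma). Over all genes 75.8% were called against BMMNCs and 4.71% against ES cells. At the latter share few of 15 genes would be called. Ezh2, the main H3K27 methyltransferase of dividing cells, had levels of 3.01 in line 7, 3.12 in line 13 and 3.12 in ES cells, against 3.10 in BMMNCs (difference -0.03 ± 0.11, limma adjusted p = 0.79). Ezh1, its paralogue, was lower in iPS cells by -1.01 ± 0.14 (limma adjusted p = 0.0111), and Phc1 was higher by 4.41 ± 0.13 (limma adjusted p = 0.00094). Of 8 Trithorax and demethylase genes measured, Ash2l (1.52 ± 0.11), Rbbp5 (0.65 ± 0.09) and Wdr5 (0.53 ± 0.10) were higher and the H3K27 demethylase Kdm6b was lower (-0.60 ± 0.10), with limma adjusted p from 0.00324 for Ash2l to 0.0217 for Wdr5. Men1 did not pass the test (0.16 ± 0.09, limma adjusted p = 0.213), and Kmt2a had no probe matched by name.

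Cdx proteins and retinoic acid activate Hox genes in the posterior embryo. Of 10 tested genes of this list 7 were higher and 1 lower in iPS cells than in BMMNCs (limma), and 3 were higher than in ES cells. The shares over all genes were 38.0% higher and 37.8% lower than in BMMNCs, and 1.93% higher than in ES cells. Cdx2 had levels of -1.14 in line 7, -1.22 in line 13 and -3.49 in ES cells, against -7.18 in BMMNCs. It was 2.31 ± 0.10 above ES cells (limma adjusted p = 0.0427) and at least 13.5-fold above BMMNCs (limma adjusted p = 0.000719). Cdx1 had levels of -3.33, -3.30 and -4.84, against -7.19 in BMMNCs, and was 1.53 ± 0.09 above ES cells (limma adjusted p = 0.0437). Cyp26a1, which degrades retinoic acid, was 1.98 ± 0.09 above ES cells (limma adjusted p = 0.0427). For these 3 genes both lines lay above the ES array, and the calls against ES cells were lost in the authors' table and without the filter on dim genes. Cdx4 was not above background on any array, and Aldh1a2, which makes retinoic acid, was 3.27 ± 0.12 above BMMNCs (limma adjusted p = 0.00113) and 0.08 above ES cells (limma adjusted p = 0.676).

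Markers of the primitive streak and posterior mesoderm, where Cdx genes are active, were above background for 3 of 6 genes on both iPS arrays and the ES array and for 2 in BMMNCs. Their summed level was 0.795 in line 7, 0.858 in line 13 and 0.41 in ES cells, against 1.31 in BMMNCs. Wnt3a (1.96) and Eomes (2.04) were higher in iPS cells than in ES cells (limma adjusted p = 0.0427 for each), calls that were lost in the same 2 settings. Tbx6 differed from ES cells by -0.76 (limma adjusted p = 0.0665) and was lower in iPS cells than in BMMNCs by -3.15 (limma adjusted p = 0.001). T and the other members of the list below background have no measured difference. Their part in the Hox differences was not tested.

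Genes beside the clusters were called in both directions. Of 12 neighbours, 7 were higher and 3 lower in iPS cells than in BMMNCs (limma), with a median of 0.49. Over all genes 38.0% were called higher and 37.8% lower, so calls in both directions are common here. Evx1, a homeobox gene at the posterior end of the Hoxa cluster, had levels of -2.24 in line 7, -2.47 in line 13 and -4.10 in ES cells, against -6.78 in BMMNCs, at least 5.98-fold above BMMNCs and 1.75 ± 0.15 above ES cells (limma adjusted p = 0.0469). Skap2, beyond the anterior end of the same cluster, was lower in iPS cells than in BMMNCs by -1.81 ± 0.10 (limma adjusted p = 0.00214). Skap1, beside the Hoxb cluster, had levels of -4.82, -4.77 and -3.60 in line 7, line 13 and ES cells, against 0.66 in BMMNCs, and was lower in iPS cells than in BMMNCs (-5.46 ± 0.10, limma adjusted p = 0.000719) and than in ES cells (-1.20 ± 0.10, limma adjusted p = 0.0457). The Evx1 and Skap1 calls against ES cells were also lost in the authors' table and without the filter on dim genes. Of the 3 ParaHox genes, relatives of the Hox clusters, Gsx1 alone was above background, with a difference of 0.10 from BMMNCs (limma adjusted p = 0.42), and Gsx2 and Pdx1 were not. None of the 14 noncoding transcripts and microRNAs of the clusters that were looked for had a probe matched by name.

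**Figure D4:**
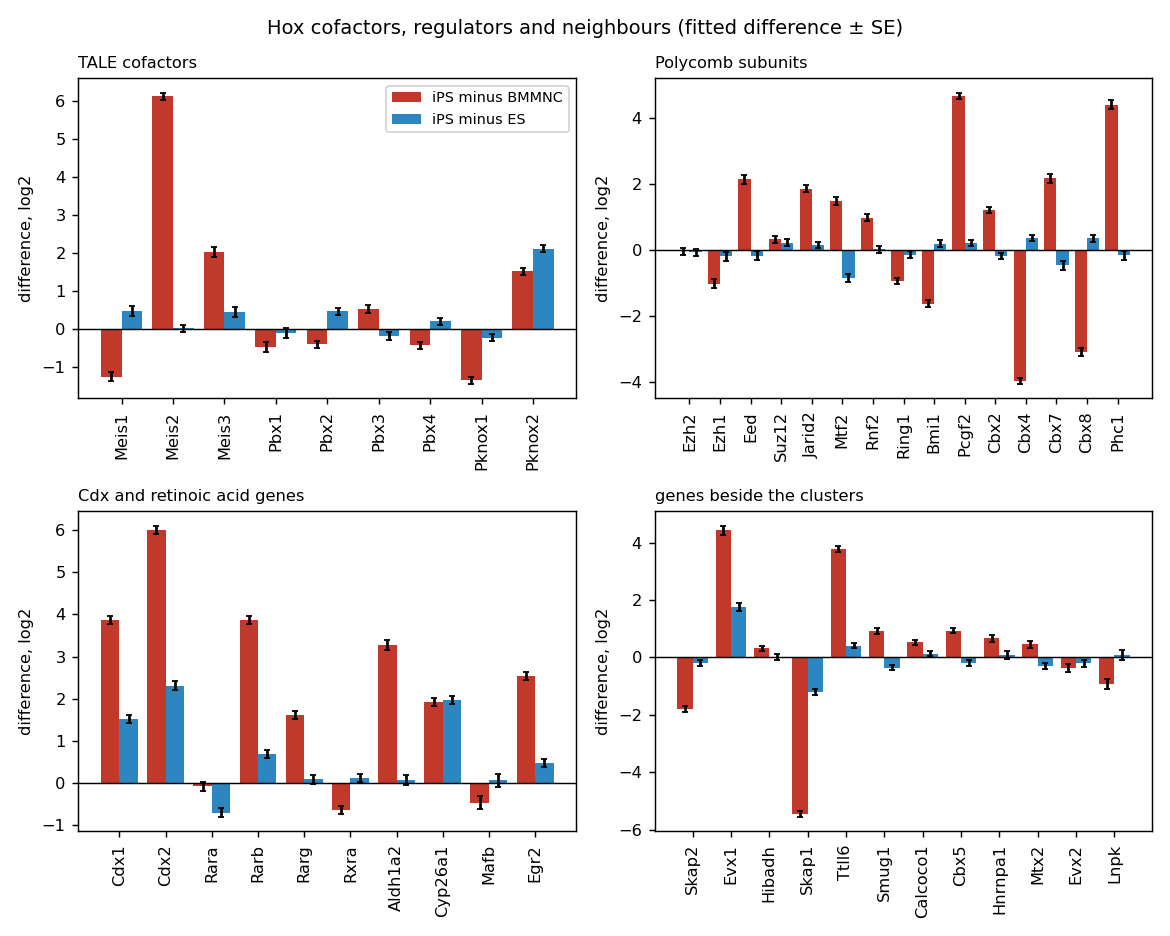
Fitted differences on the log2 scale with SE bars (limma) for tested TALE cofactors, Polycomb subunits, Cdx and retinoic acid genes, and genes beside the clusters; red bars are iPS minus BMMNC and blue bars iPS minus ES. Cdx1, Cdx2, Cyp26a1, Pknox2 and Evx1 have blue bars above 1.5. Polycomb genes have blue bars between -0.84 and 0.37, and 4.71% of all genes were called between iPS and ES cells.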

How the data were processed

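RNA of 4 samples was labelled with Cy3 and read on single-colour Agilent arrays with Feature Extraction 9.5 (9.5.1.1 per the file headers). The deposited intensity is Agilent's processed signal, background-subtracted within each array per the file headers; the authors' table, also an intensity, is this signal divided by 1 factor per array (column medians of 135.9 for line 7, 133.6 for line 13, 139.9 for ES cells and 106.2 for BMMNCs; linear, not centred by gene; how the factors were set is not given in the sources used here). The 4 arrays share 1 slide and 1 scan, so slide and scan do not differ between groups; culture, extraction and labelling batches are not given in the sources used here.

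Control spots and 14 probes with non-uniform spots were left out, spots of a probe averaged, and log2 signals taken minus the array's 75th percentile. Accessions were matched to RefSeq names (GRCm38.p6), which named 22941 of 41174 probes; the array's own design is on an older build, so only promoter windows carry coordinates. A gene took its brightest probe, and a probe was well above background when at least 0.5 of its spots were marked so. Any gene with 1 or more arrays above background entered a limma 3.58.1 fit in R 4.3.3: 3 group means, prior with 1.79 degrees of freedom and an SD of 0.093, Benjamini-Hochberg threshold 0.05. The fit was tested on simulated data. The number of arrays limits the precision.

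All Hox members above background were named, except 1 that enters the counts and is not reported here, the others by count; of each other list the first 2 genes, the largest difference measured on both sides, members called where 5 or fewer were, and all Cdx genes; markers could be named freely. Members and the lists (TALE, Polycomb, Trithorax, Cdx and retinoic acid, ParaHox, neighbours, noncoding, and 6 marker lists) were chosen with earlier results of these data known. Normexp used the median foreground signal, since the files hold no mean signal column, in place of the planned mean. Alternatives were quantile, median and normexp scaling, the authors' table, other filters, probes and variance models, 1 pluripotent group, and each line left out. No column of per-sample values was without a sample (0).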

Additional observations from a re-analysis of the deposited data

How the results depend on the processing

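The count of Hox genes higher in iPS cells than in BMMNCs (20) was 2 when only genes above background on all arrays were tested, since 7 members remain there, and 14 to 22 otherwise; the count lower (3) was 7 with normexp and 2 to 4 otherwise. The 15 members 4-fold higher became 5 with normexp, 1 with the all-array filter, 9 with levels raised to the floor (chosen after the data were seen), and 15 to 17 with 1 line left out. Members called higher than ES cells (0) were 6 with normexp, 4 with the all-array filter and 8 with the intensity trend. Calls over all genes rose in these settings too, as given above. Members 2-fold higher than ES cells were 0 to 1 with 1 line left out. For ES cells against BMMNCs, 19 higher became 10 with normexp, 2 with the all-array filter and 12 with the floor. The 4 lower became 9 with normexp, 7 with quantile normalization, 7 with median scaling, 2 without the filter and 2 with iPS and ES arrays as 1 group. The 15 that were 4-fold higher became 4 with normexp, 1 with the all-array filter and 8 with the floor. Detection by the weaker mark for positive and significant spots gave 34 genes in line 7, 32 in line 13 and 34 in ES cells, against 17 in BMMNCs.

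Differences that turned sign in iPS cells against BMMNCs were Hoxa3 (0.70, mean of probes), Hoxa4 (-0.46, normexp; -0.72, mean of probes), Hoxc5 (-0.24, normexp; -0.09, floor) and Hoxd13 (-0.13, normexp). In ES cells against BMMNCs they were Hoxb13 (-0.03, normexp; -0.14, floor), Hoxc5 (-0.38, normexp; -0.20, floor), Hoxc8 (-0.0036, normexp), Hoxd10 (-0.12, normexp) and Hoxd13 (-0.15, normexp). The cause was not tested. The median over all genes in iPS against BMMNCs was -0.20 with normexp, -0.20 with median scaling and 0.12 in the authors' table, where -0.01 was the value used. With 1 line left out no residual degree of freedom remains, so those are values with no test. A slide block could not be fitted, because all arrays share 1 slide. No paired analysis was possible because the iPS group alone has more than 1 array and the groups share fewer than 2 replicate numbers. Signal over background limits genes near the floor, chiefly Hoxa4, Hoxa6, Hoxb4, Hoxb13, Hoxc5, Hoxc8 and the Hoxd genes.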

Other observations

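Blood progenitor markers, a cell type in which several Hoxa genes are used, were lower in iPS cells than in BMMNCs for 6 of 7 tested genes and higher for 1 (limma). Cd34, a surface protein of progenitors and endothelium, had levels of -1.86 in line 7, -1.74 in line 13 and -0.63 in ES cells, against 3.52 in BMMNCs, and Kit, the stem cell factor receptor, had levels of 0.32, 0.42 and 1.45, against 1.59 in BMMNCs. Of 5 endothelial markers 1 was higher and 2 were lower in iPS cells than in BMMNCs. Over all genes 38.0% were called higher and 37.8% lower than in BMMNCs, and 4.71% were called between iPS and ES cells. Of the 10 pluripotency markers, Zfp42 alone was called between iPS and ES cells, with levels of 3.31 in line 7 and 3.55 in line 13, against 7.12 in ES cells (difference -3.70 ± 0.16, limma adjusted p = 0.0427), a call lost in the authors' table and without the filter on dim genes, where no gene of the series was called.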
